A study of Mus musculus with 6 samples.

Results

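The nuclear-encoded genes of the mitochondrial respiratory chain were read here in ribosome-bound mRNA of mouse brain. They were chosen by symbol alone: all symbols that start with Nduf, Uqcr, Atp5 or Cox followed by a digit from 4 to 8, together with Sdha, Sdhb, Sdhc and Sdhd, without symbols marked as pseudogenes. The rule took 96 of 26264 genes in the table. They comprise 39 genes of complex I, 8 complex I assembly factors (Ndufaf), 4 of complex II, 8 of complex III, 20 of complex IV and 17 of complex V. Ndufa4 and its relative Ndufa4l2 were counted with complex IV, since the Ndufa4 protein is a subunit of cytochrome c oxidase despite its name. The symbols leave out some proteins of the chain, such as Cyc1 and Cycs, which stand in a separate list.

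The libraries came from whole brains of Gfap-Cre; RiboTag mice, 3 kept on a diet with PLX5622 at 1200 ppm for 1 month and 3 kept on a control diet for the same time. PLX5622 inhibits the receptor Csf1r and removes microglia, and the study asks what it does to cholesterol genes of other brain cells. In RiboTag mice, cells that express Cre carry an HA tag on a ribosomal protein, and their ribosomes with the bound mRNA are pulled down through that tag. Both diets share this genotype, in which the astrocyte gene Gfap drives Cre, and per the labels the captured RNA also held neurons and oligodendrocytes. Age is not given in the sources used here. The labels call the libraries biological replicates.

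The respiratory chain sits in the inner mitochondrial membrane. Complex I takes electrons from NADH and complex II from succinate, complex III passes them to cytochrome c, and complex IV hands them to oxygen. Complexes I, III and IV pump protons, and complex V, the ATP synthase, lets them flow back to make ATP. All subunits of complex II and most of the others are encoded in the nucleus, and a few core subunits of complexes I, III, IV and V in mitochondrial DNA. Neurons rely heavily on this chain, while astrocytes combine it with a high rate of glycolysis. Many of the nuclear genes share promoter sites for the factors NRF1, GABP (an ETS protein), YY1 and the ERR receptors.

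Some libraries went against their labels, which bears on every comparison of diets. Over 12710 genes, log2 fold changes of the authors' deposited table had a Pearson r of 0.524 with the difference by label, and of 0.947 when control 3 and PLX5622 3 traded places. Both r are taken over genes, not replicates, and which headings are right is not known. Group medians, several paralog ratios and several named genes are therefore also given with the 2 libraries exchanged, and for some of these without both or in the authors' table. Other values are by label alone and rest on headings in doubt. The 12 microglia markers summed to 39.9, 28.6 and 56.4 TPM (a level scaled by transcript length and by the library total) in the libraries labelled PLX5622 1 to 3, against 139, 85.9 and 37.0 TPM in control 1 to 3. Cx3cr1, C1qb, C1qc and Ctss were listed at 0 in at least 1 library. The 10 astrocyte markers summed to between 38308 and 42571 TPM on PLX5622 and between 24177 and 33706 TPM on control diet, and all 10 were above 0 in each library. The 9 neuron markers summed to 1066 to 1632 TPM on PLX5622 and 1754 to 2072 TPM on control diet, with none at 0, and the 7 oligodendrocyte markers to 2909 to 3911 and 3273 to 4257 TPM. The 4 haemoglobin genes were listed at 0 throughout. Fewer cells of a type and less RNA per cell cannot be told apart in such libraries. Depth is unknown here, since it cannot be read back from TPM.

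Respiratory chain transcripts made up several percent of every library. Summed over the 96 genes they took 4.18, 4.37 and 4.15% of the TPM in PLX5622 1 to 3, against 6.47, 4.34 and 5.39% in control 1 to 3. The means were 4.23 ± 0.118% on PLX5622 and 5.40 ± 1.06% on control diet (SD, n = 3 each). Control 2 thus lay inside the PLX5622 range, and the spread within control diet came from control 1 and control 3.

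Levels differed far more between genes than between libraries. Of the 96 genes, 92 had a mean of at least 1 TPM and were tested. Their median level was 404 TPM, against 15.3 TPM over all 13084 tested genes. Complex V had the highest median per subunit, 734 TPM with a range of 124 to 1948 TPM, followed by complex III with 594 TPM, complex IV with 498 TPM, complex II with 462 TPM and complex I with 355 TPM. The ranges of the complexes overlapped. The 8 assembly factors, which help to build complex I but are not part of it, had a median of 35.1 TPM, and each lay below the lowest tested subunit of complex I at 105 TPM. The 4 genes under the minimum were Cox8c, listed at 0 in all libraries, Ndufa11b, Ndufb4c and Ndufa4l2. Ndufa11b was above 0 in PLX5622 2, control 2 and control 3 only, and Ndufb4c ranged from 0.439 to 0.872 TPM on PLX5622 and was highest in control 1.

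**Figure D1:**
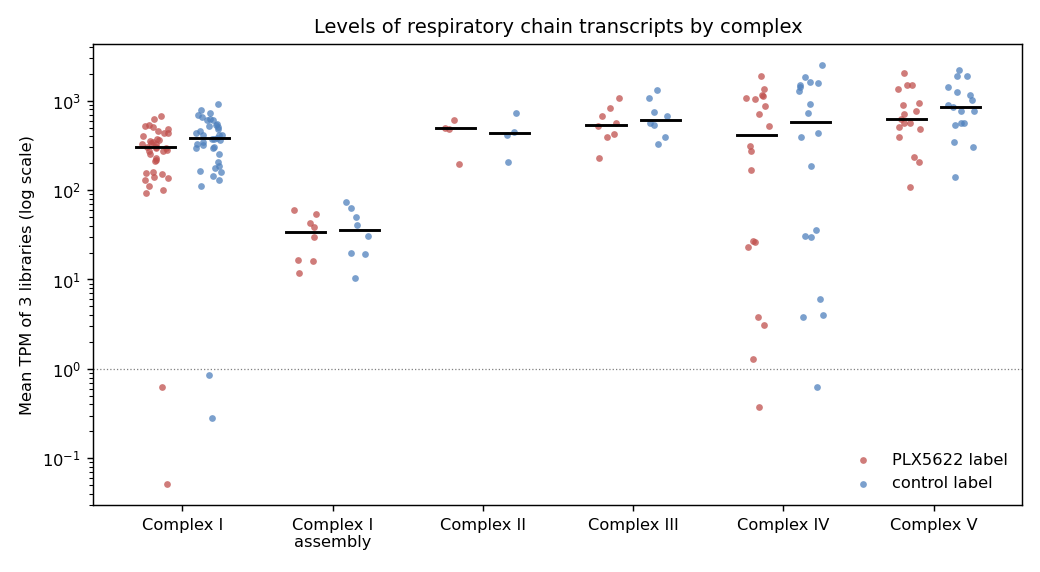
Mean TPM of each gene over 3 libraries (log scale) by complex, with PLX5622 left and control right; bars are medians of the tested genes and the dotted line marks 1 TPM. The 8 assembly factors lie below the tested complex I subunits, and complex IV spreads widest, with its tissue-restricted paralogs at the low end.

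Promoter windows from RefSeq (GRCm38.p6, 250 bases before to 50 after the start) were matched for 77 of the 96 genes, in 82 windows. GRCm38.p6 is not the build of the deposited data, so the coordinates serve only to place these sequences. Both strands were searched for 4 short motifs: NRF1 as GCATGCGC, ETS as CCGGAAG, YY1 as AAGATGGC and ERR as AAGGTCA. The NRF1 letters stood in 14.6% of the respiratory windows, against 4.97% of windows of tested genes and 2.71% of all 32851 windows. For ETS the shares were 23.2%, 16.3% and 8.86%, for YY1 13.4%, 4.21% and 2.75%, and for ERR 9.76%, 3.14% and 4.72%. At least 1 motif was held by 47.6% of respiratory windows, 25.9% of those of tested genes and 17.6% of all windows. A match is a description of letters and not evidence that a factor binds. A window with the most kinds of motif is shown for the assembly factors and each of complexes II to V, where Atp5l held as many kinds as Atp5k and Sdhd as many as Sdhb and the gene with the higher level was taken, and none of the 33 complex I subunits with a window held 2 kinds. Capitals mark the motifs.
Ndufaf8 promoter, chr11:120098684-120098983, plus strand: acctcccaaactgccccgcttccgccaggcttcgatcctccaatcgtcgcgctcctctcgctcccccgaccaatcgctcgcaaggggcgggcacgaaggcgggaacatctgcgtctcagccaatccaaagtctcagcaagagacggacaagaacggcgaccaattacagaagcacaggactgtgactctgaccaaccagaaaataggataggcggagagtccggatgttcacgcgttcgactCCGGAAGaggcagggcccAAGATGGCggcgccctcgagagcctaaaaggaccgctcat
Sdhb promoter, chr4:140961021-140961320, plus strand: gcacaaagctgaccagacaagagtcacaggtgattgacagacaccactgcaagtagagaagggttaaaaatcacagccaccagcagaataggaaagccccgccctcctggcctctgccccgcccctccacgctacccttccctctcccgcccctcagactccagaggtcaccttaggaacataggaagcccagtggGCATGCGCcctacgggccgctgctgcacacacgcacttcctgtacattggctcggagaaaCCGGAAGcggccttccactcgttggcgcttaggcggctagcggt
Uqcr11 promoter, chr10:80406772-80407071, minus strand: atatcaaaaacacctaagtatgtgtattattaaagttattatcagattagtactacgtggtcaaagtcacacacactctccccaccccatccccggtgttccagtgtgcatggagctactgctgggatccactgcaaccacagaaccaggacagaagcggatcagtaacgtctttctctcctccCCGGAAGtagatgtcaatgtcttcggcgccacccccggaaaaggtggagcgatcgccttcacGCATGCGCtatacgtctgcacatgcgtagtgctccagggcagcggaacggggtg
Cox6a1 promoter, chr5:115348909-115349208, minus strand: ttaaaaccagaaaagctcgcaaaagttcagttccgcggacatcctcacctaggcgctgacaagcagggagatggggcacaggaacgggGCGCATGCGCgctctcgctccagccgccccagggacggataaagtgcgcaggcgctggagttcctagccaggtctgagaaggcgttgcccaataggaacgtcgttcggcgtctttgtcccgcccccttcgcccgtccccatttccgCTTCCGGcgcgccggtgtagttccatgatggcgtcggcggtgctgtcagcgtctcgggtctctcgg
Atp5k promoter, chr5:108434350-108434649, minus strand: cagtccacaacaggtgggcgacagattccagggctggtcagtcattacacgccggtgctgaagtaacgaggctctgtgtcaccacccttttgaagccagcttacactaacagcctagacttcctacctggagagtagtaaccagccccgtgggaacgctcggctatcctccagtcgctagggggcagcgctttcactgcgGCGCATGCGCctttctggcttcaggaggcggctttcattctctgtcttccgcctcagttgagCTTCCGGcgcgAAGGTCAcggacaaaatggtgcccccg
In Sdhb the NRF1 letters began at −54, counted with the start as 1, and the ETS letters at 7. Cox6a1 and Atp5k each held the NRF1 letters on both strands in 1 overlapping run, beginning at −162 and −50. Atp5k, a subunit that holds ATP synthase dimers together, was the only 1 of the 5 shown with 3 kinds, NRF1, ETS and ERR. Ndufaf8 held ETS at −8 and YY1 at 11, and Uqcr11 held ETS at −66 and NRF1 at −4.

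By diet label, respiratory chain transcripts were lower on PLX5622 as a group, and no single gene passed the test. Of the 92 tested genes, 84 had a negative log2 difference and 8 a positive one, with a median of −0.36. Over all tested genes 38.9% were negative and 61.1% positive, and the median was 0.089. With limma, 0 of the 92 were called lower and 0 higher at an adjusted p of 0.05, where the shares over all 13084 genes were 0% and 0%, and the lowest adjusted p was 0.205. Without adjustment, 43 had a limma p under 0.05 and were lower and 0 were higher, against 8.02% and 14.7% of all tested genes, or 22.7% in either direction. All 3 PLX5622 libraries lay below all 3 control libraries for 29 of the 92 and above them for 1, Sdhc, against 9.39% and 19.4%. The direction remained without the libraries labelled control 3 and PLX5622 3, with 83 of 92 negative against 36.3% of all tested genes and a median of −0.34. Removing them gave 0 calls among the 92, against 0.0919% lower and 0.0153% higher over all tested genes. With these 2 exchanged, 76 of 92 were negative against 34.3% and the median was −0.069. Per complex, the medians without both libraries were −0.36 for complex I, −0.13 for its assembly factors, 0.11 for complex II, −0.27 for complex III, −0.38 for complex IV and −0.35 for complex V. With the 2 exchanged they lay between −0.094 for complex I and 0.076 for complex II. Among single genes, Ndufb4 was at −0.59 without both and −0.11 exchanged, Cox4i1 at −0.38 and −0.11, Atp5h at −0.50 and −0.16, and Sdha at 0.24 and 0.059.

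The difference went with high levels in the libraries labelled control 1 and control 3. Both were above the other 4 libraries for 77 of the 92 genes, against 15.9% of all tested genes. Control 1 was the highest library for 77 of the 92, against 15.4%, and it was the lowest for 8 of the 92, against 54.8%. Control 2 lay within the PLX5622 range for 56 of the 92, against 42.8%. As a mean over the 92 genes, the level deviated from the mean of the 6 libraries by −0.18, −0.099 and −0.20 on the log2 scale in PLX5622 1 to 3, and by 0.42, −0.13 and 0.19 in control 1 to 3. The median difference was −0.20 without control 1, −0.52 without control 2 and −0.36 without control 3, against −0.36 with all 6 libraries. Without control 2, limma called 63 of the 92 lower and 1 higher, Sdha, against 8.82% and 19.9% of all tested genes, and the smallest adjusted p of these 92 genes was 0.00214. Leaving out any other single library gave 0 calls among the 92. Without PLX5622 1, 0.268% of all tested genes were called lower and 0.00765% higher, and for the other removals these shares are not given.

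**Figure D2:**
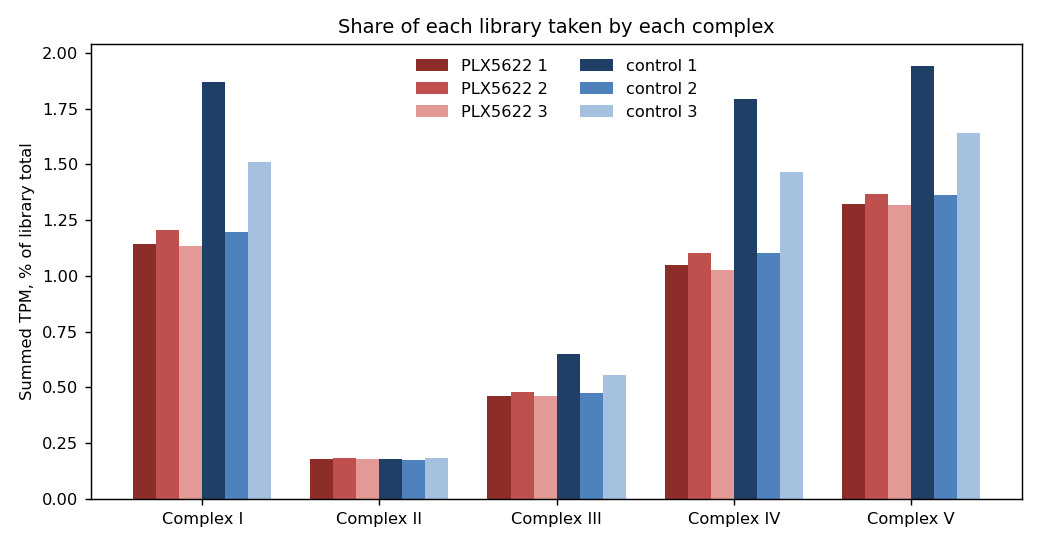
Summed TPM of each complex as a share of the library total, with bars from 0, for PLX5622 1 to 3 and then control 1 to 3. Control 1 and control 3 are the highest for complexes I, III, IV and V, control 2 lies near the PLX5622 libraries, and complex II is level across all 6.

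Complex I, the NADH dehydrogenase, had 35 of its 37 tested subunits negative by label, with a median of −0.39. It took 1.16 ± 0.0376% of TPM on PLX5622 and 1.53 ± 0.336% on control diet (SD, n = 3 each). Its 30 tested accessory subunits, which stabilise the enzyme without carrying electrons, were all negative, with a median of −0.41. Ndufb4, an accessory subunit of the membrane arm, was at 104, 134 and 98.4 TPM in PLX5622 1 to 3 and at 247, 128 and 176 TPM in control 1 to 3. Its difference of −0.67 ± 0.23 (log2, SE) had the smallest p of complex I (limma adjusted p = 0.205), yet control 2 lay below PLX5622 2. Ndufb9, the most abundant complex I subunit here, was at 682, 701 and 654 TPM on PLX5622 and at 1095, 734 and 909 TPM on control diet. Its groups did not overlap, and the difference was −0.41 ± 0.16 (limma adjusted p = 0.205). Ndufb10 averaged 627 ± 34.7 TPM on PLX5622 and 786 ± 168 TPM on control diet (SD, n = 3 each), and its groups overlapped. Ndufb9 was at −0.37 without control 3 and PLX5622 3 and at −0.091 with them exchanged.

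The 7 core subunits of complex I, which carry the flavin and iron-sulphur centres, were less uniform, with 5 negative, 2 positive and a median of −0.33. Ndufs1, the largest iron-sulphur subunit, was at 153, 150 and 169 TPM on PLX5622 and at 139, 152 and 143 TPM on control diet, a difference of 0.12 ± 0.11. Ndufv1, which binds NADH and the flavin, was at 427, 375 and 396 TPM on PLX5622 and at 471, 412 and 418 TPM on control diet, a difference of −0.12 ± 0.12. Both sets of values overlapped between diets. Ndufs7, which carries the last iron-sulphur centre before the quinone, averaged 454 ± 21.4 TPM on PLX5622 and 611 ± 141 TPM on control diet, and its groups did not overlap.

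The assembly factors differed less, with 7 of 8 negative and a median of −0.21. Ndufaf4, which acts early in assembly of the peripheral arm, was at 9.38, 14.8 and 10.9 TPM on PLX5622 and at 9.10, 10.3 and 11.6 TPM on control diet. Its difference was 0.15 ± 0.18, and without PLX5622 2 it was −0.019. The other 7 ranged from −0.27 for Ndufaf8 to −0.060 for Ndufaf1, whose means were 29.7 ± 2.12 TPM on PLX5622 and 30.9 ± 0.667 TPM on control diet.

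Complex II, succinate dehydrogenase, was the 1 complex without a lower sum by label. It took 0.180 ± 0.00262% of TPM on PLX5622 and 0.180 ± 0.00465% on control diet (SD, n = 3 each), and its 4 genes split evenly in sign, with a median of 0.043. Sdha, the flavoprotein that oxidises succinate, was at 485, 469 and 507 TPM on PLX5622 and at 346, 470 and 410 TPM on control diet. Its difference of 0.26 ± 0.14 was the largest positive one of the 92 (limma adjusted p = 0.265), and control 2 was level with PLX5622 2. Sdhb, the iron-sulphur subunit that receives the electrons from Sdha, was at 612, 623 and 601 TPM on PLX5622 and at 846, 611 and 731 TPM on control diet, a difference of −0.24 ± 0.14. The TPM ratio of Sdhb to Sdha was 1.26, 1.33 and 1.19 in PLX5622 1 to 3 and 2.44, 1.30 and 1.78 in control 1 to 3. Transcripts of these partner subunits thus stood in different proportion in control 1 and control 3 than in the other 4 libraries. The relative lengths (defined with the length results) were 0.926 for Sdha and 0.355 for Sdhb, and the part of length in this ratio was not tested. Sdhc, a membrane anchor, was at 487, 508 and 509 TPM on PLX5622 and at 388, 486 and 481 TPM on control diet, a difference of 0.16 ± 0.13 with groups that did not overlap. It was 0.19 without control 3 and PLX5622 3 and 0.10 with them exchanged. Sdhd, the other anchor, was at 184, 219 and 187 TPM on PLX5622 and at 212, 185 and 222 TPM on control diet, a difference of −0.071 ± 0.13.

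Complex III, the cytochrome bc1 complex, had all 8 genes negative, with a median of −0.30, but its members ranged from −0.48 to −0.011. The core proteins Uqcrc1 and Uqcrc2 were the closest to 0. Uqcrc1 was at 705, 616 and 682 TPM on PLX5622 and at 665, 700 and 658 TPM on control diet, a difference of −0.017 ± 0.12. Uqcrfs1, the Rieske iron-sulphur protein, averaged 524 ± 8.11 TPM on PLX5622 and 557 ± 35.6 TPM on control diet, a difference of −0.084 ± 0.11. The small subunits lay lower. Uqcrq was at 232, 237 and 219 TPM on PLX5622 and at 431, 236 and 324 TPM on control diet, a difference of −0.48 ± 0.20 (limma adjusted p = 0.206). Uqcrh, the hinge protein at the cytochrome c side, averaged 1060 ± 71.4 TPM on PLX5622 and 1315 ± 262 TPM on control diet. Uqcr11 was at 796, 850 and 828 TPM on PLX5622 and at 1266, 879 and 1049 TPM on control diet, with groups that did not overlap and a difference of −0.35 ± 0.15. With control 3 and PLX5622 3 exchanged, Uqcrq was at −0.11 and Uqcr11 at −0.13, against −0.44 and −0.36 without both.

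Complex IV, cytochrome c oxidase, had all 18 tested genes negative, with a median of −0.43. By label this was the lowest of the 5 complexes, but complexes I and V lay below it with control 3 and PLX5622 3 exchanged (−0.094 and −0.074, against −0.055) and after a correction for exonic length (−0.20 and −0.23, against −0.17). After a correction for relative length (defined with the length results), complex I lay below complex IV and complex V above it. Complex IV took 1.06 ± 0.0402% of TPM on PLX5622 and 1.45 ± 0.345% on control diet (SD, n = 3 each). Cox4i1, the most abundant of the 96 genes and the largest nuclear subunit of the enzyme, was at 1877, 1895 and 1861 TPM on PLX5622 and at 3102, 1940 and 2495 TPM on control diet. Its groups did not overlap, though control 2 was close to PLX5622 2, and the difference was −0.39 ± 0.18 (limma adjusted p = 0.221). Cox8a, a small membrane subunit, was at 1298, 1464 and 1317 TPM on PLX5622 and at 2296, 1351 and 1932 TPM on control diet. Ndufa4 was at 1168, 1167 and 1080 TPM on PLX5622 and at 1565, 1260 and 1427 TPM on control diet, a difference of −0.31 ± 0.13 with groups that did not overlap. Ndufa4 was at −0.27 without control 3 and PLX5622 3 and at −0.044 with them exchanged, and Cox8a at −0.35 and −0.052.

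Complex V, the ATP synthase, had 14 of 17 genes negative, with a median of −0.39. The 5 tested subunits of the catalytic F1 head had a median of −0.13, from −0.42 for Atp5e to 0.12 for Atp5a1, and took 0.521 ± 0.00464% of TPM on PLX5622 and 0.534 ± 0.0154% on control diet (SD, n = 3 each). The 12 genes of the membrane Fo part and the stalks had a median of −0.46, from −0.63 for Atp5md to 0.0088 for Atp5pb, and took 0.817 ± 0.0320% on PLX5622 and 1.11 ± 0.275% on control diet. The members of both parts overlapped, the difference between the parts was not tested, and their median relative lengths (defined with the length results) were 0.591 and 0.241. Atp5b, the catalytic beta subunit, was at 2053, 1945 and 2066 TPM on PLX5622 and at 1734, 2036 and 1855 TPM on control diet, a difference of 0.11 ± 0.13. Atp5a1, the alpha subunit, kept a TPM ratio to Atp5b between 0.645 and 0.675 in all 6 libraries. Atp5h, subunit d of the stalk, was at 1482, 1541 and 1451 TPM on PLX5622 and at 2876, 1582 and 2079 TPM on control diet. Its difference was −0.50 ± 0.20 (limma adjusted p = 0.205), with groups that did not overlap. Atp5pb, subunit b of the same stalk, averaged 570 ± 9.32 TPM on PLX5622 and 567 ± 38.6 TPM on control diet.

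**Figure D3:**
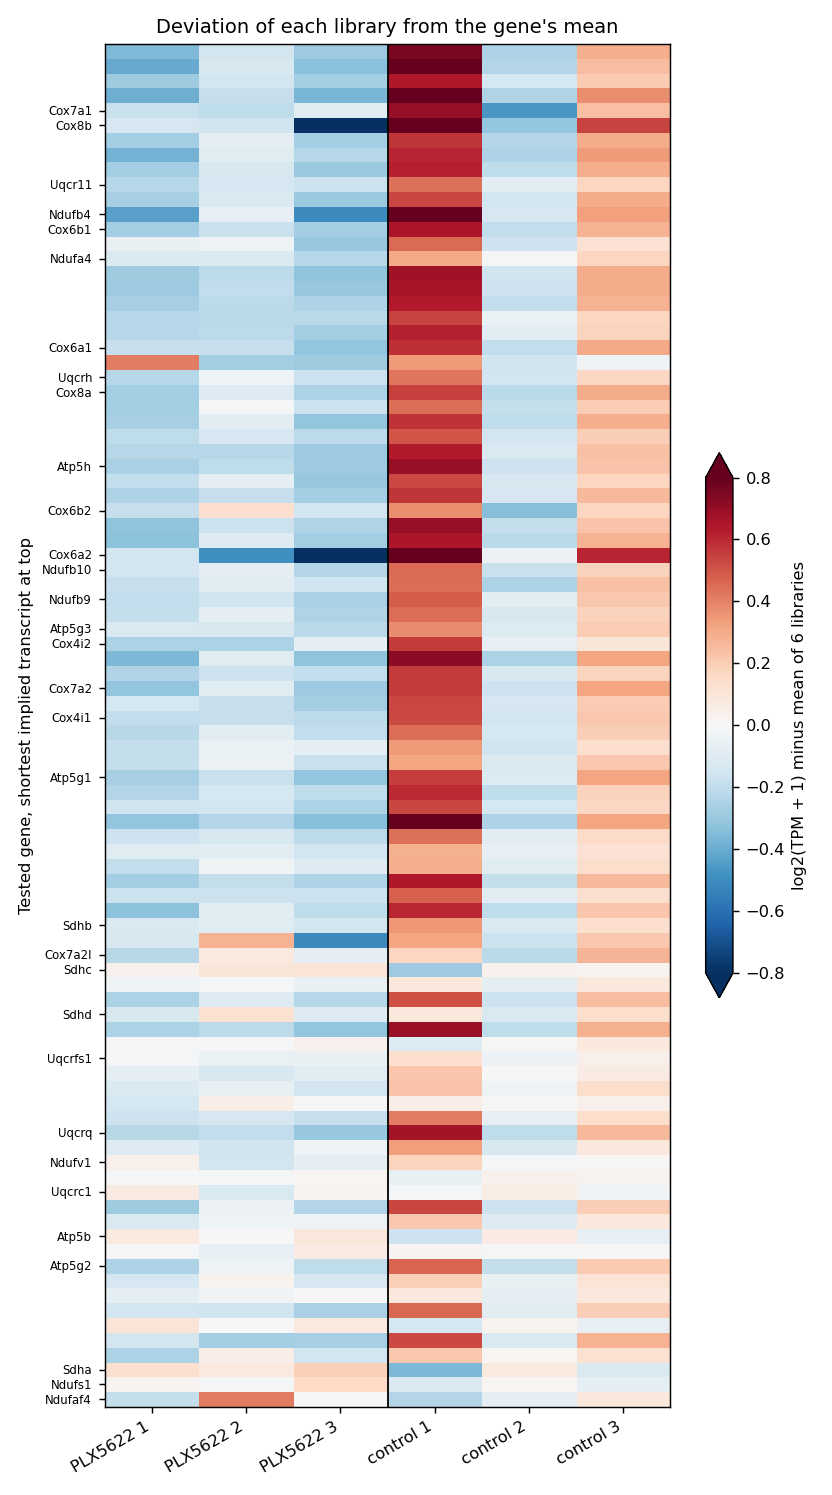
Colours give each library's log2(TPM + 1) minus the gene's mean over 6 libraries for the 92 tested genes, ordered from the shortest implied transcript at the top to the longest at the bottom, with PLX5622 left of the line and labels for genes described in the text. Red in control 1 and control 3 is strong for short transcripts and faint or absent for Atp5b, Ndufs1, Sdha and Ndufaf4 near the bottom.

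The size of the difference followed transcript length. A relative length, the length implied by the deposited values, was taken for each gene as the authors' deposited mean normalized count over the mean TPM, set to 1 at the median tested gene. The respiratory genes are short: their median relative length was 0.254, below which only 4.02% of tested genes lay. Of the 92 genes, the 31 shortest (relative length 0.107 to 0.199) were all negative, with a median of −0.47. The next 31 (0.204 to 0.377) were all negative, with a median of −0.37. Of the 30 longest (0.383 to 1.18), 22 were negative, with a median of −0.10, and these 30 held all 8 positive genes. The difference correlated with relative length at a Spearman rho of 0.635 across the 92 genes and 0.480 across all tested genes, as a description, since genes share the libraries and this length is itself computed from the TPM. With exonic length from GENCODE M21, which does not use the TPM, rho was 0.377 across 89 of these genes and 0.437 across all tested genes, and the deviation of control 1 had a rho of −0.443 and that of control 3 of −0.419 across the 89. Across the 92 genes the deviation of a library correlated with relative length at −0.673 in control 1 and −0.602 in control 3, and between 0.433 and 0.618 in the other 4. Between the PLX5622 libraries and control 1 and 3, an effect of diet and one of length cannot be told apart. After a loess correction on exonic length from GENCODE M21, 72 of 89 genes with a length were negative, against 48.2% of all tested genes, and the median was −0.15, with complex V at −0.23 and complex I at −0.20. Exonic length joins all annotated exons, and for some genes it departs from the relative length in either direction. Atp5g1 had 4912 bases, above the median of 4419 for tested genes, but a relative length of 0.288. Its difference was −0.51 before this correction and −0.63 after it. The part of such genes in the 72 was not tested. After a loess correction on the relative length, a choice made after seeing the data, 63 of 92 were negative, against 48.3%, and the median was −0.099. Neither gave a call among these genes, and the share of all tested genes called is not given for either.

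**Figure D4:**
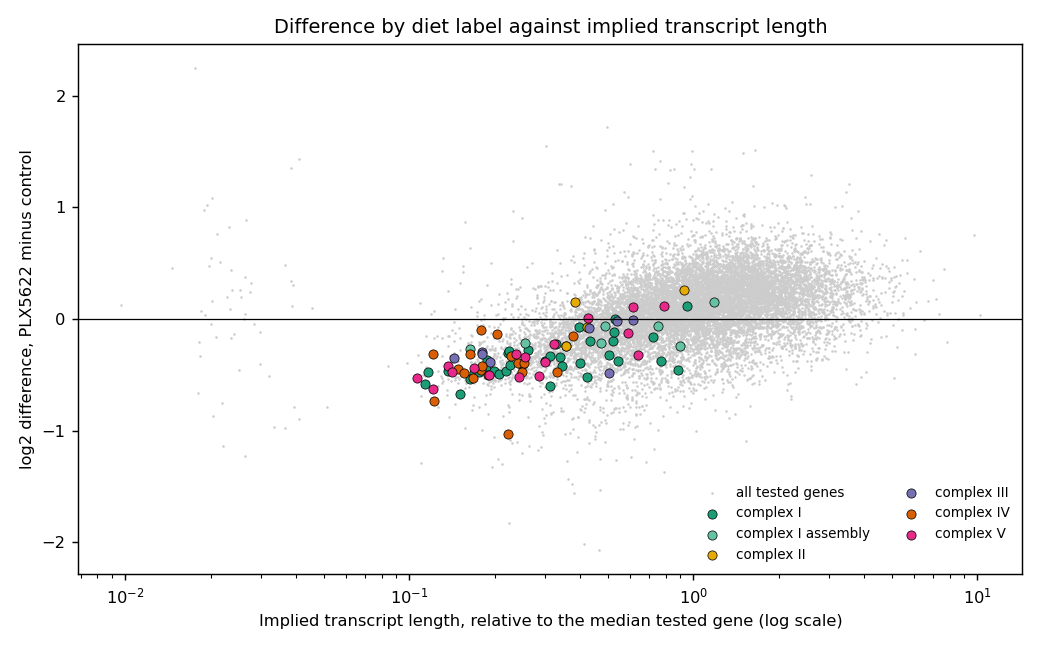
Log2 difference (PLX5622 minus control) against implied transcript length relative to the median tested gene (log scale), for all tested genes in grey and the 92 respiratory genes coloured by complex. The shortest respiratory genes lie mostly below −0.3, and among the longer ones Sdha, Atp5a1 and Ndufs1 lie above 0 while some of complex I and its assembly factors lie below it.

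Several subunits have paralogs, many of them used in particular tissues, and 9 pairs were compared, each as the less abundant gene against the more abundant one. Both genes of a pair were compared as a log2 ratio of TPM per library, with an exact two-sided permutation test over the 6 libraries, whose smallest possible p is 0.1. In 9 pairs the adjusted exact p was 0.225 or higher. With a smallest possible p of 0.1, no pair could pass 0.05 whatever the data. The diets separated by label for 4 pairs, those of Cox6a2, Cox6b2, Cox7a2l and Atp5g1, and with control 3 and PLX5622 3 exchanged each of these 4 overlapped. No such share was computed for ratios of other genes, so 4 of 9 is not read as a trait of these pairs. Among single tested genes the diets separated by label for 9.39% as lower and 19.4% as higher. The exchange, added for these ratios after the data were seen, gave 1 pair that separated, Cox4i2 (difference of the log2 ratio −0.17, exact p = 0.1). Cox4i2, an oxygen-sensitive form known from lung, made up 1.33, 1.31 and 1.51% of the Cox4i pair on PLX5622 and 1.43, 1.47 and 1.29% on control diet. That share varied within diets by more than between them (difference of the log2 ratio by label −0.011, exact p = 1). Cox4i2 itself had 25.2, 25.2 and 28.6 TPM on PLX5622 and 45.0, 28.9 and 32.5 TPM on control diet. The 7 mural cell markers summed to 42.9, 27.9 and 48.6 TPM on PLX5622 and 43.2, 48.5 and 39.9 TPM on control diet. By label 3 of the 4 tested mural markers were negative, with a median of −0.21. With control 3 and PLX5622 3 exchanged all 4 were negative, with a median of −0.27, against 34.3% of all tested genes. In the authors' deposited table all 7 were negative, with a median of −0.47, against 53.7% of all 20062 genes. Their part in the Cox4i2 result was not tested.

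Cox6a2 is the heart and muscle form of subunit VIa, which mouse brain also uses in some interneurons. On the log2(TPM + 1) scale Cox6a2 had the largest difference of the 92 genes. It was at 1.91, 1.29 and 0.721 TPM on PLX5622 and at 5.34, 2.11 and 3.90 TPM on control diet, a difference of −1.03 ± 0.27 on the log2(TPM + 1) scale (limma adjusted p = 0.205). The groups did not overlap, and all of these levels are low. With log2(TPM + 5) the difference was −0.47, where that of Ndufb4 was −0.65, and with log2(TPM + 0.1) that of Cox6a2 was −1.47. Its share of the Cox6a pair was 0.111 ± 0.0468% on PLX5622 and 0.224 ± 0.0426% on control diet (SD, n = 3 each; exact p = 0.1), and the log2 ratio differed by −1.09 by label and by 0.12 exchanged (exact p = 1). The 9 neuron markers summed to 1632, 1066 and 1099 TPM on PLX5622 and to 1754, 2072 and 1824 TPM on control diet, and their part in the result was not tested. Gad1, the marker of inhibitory neurons among them, was at 17.0, 10.3 and 18.1 TPM on PLX5622 and at 14.4, 14.9 and 15.7 TPM on control diet, with overlapping groups. With control 3 and PLX5622 3 exchanged, the difference of Cox6a2 was −0.020, against −0.78 without both libraries, and in the authors' deposited table its log2 fold change was −0.34 (95% interval −1.72 to 1.03). Cox6a1, the ubiquitous form, was at 1194, 1194 and 1091 TPM on PLX5622 and at 2034, 1183 and 1680 TPM on control diet.

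The other muscle and testis forms were also minor. Cox8b, a heart and muscle form, was at 3.75, 3.67 and 1.96 TPM on PLX5622 and at 8.55, 3.21 and 6.58 TPM on control diet, with overlapping groups and a difference of −0.74 ± 0.30 that was 0.17 with control 3 and PLX5622 3 exchanged. Cox7a1, another heart and muscle form, made up 6.99 ± 0.715% of its pair with Cox7a2 on PLX5622 and 6.38 ± 0.984% on control diet (exact p = 0.6). Cox6b2, known as a testis form, made up 2.48 ± 0.218% of its pair with Cox6b1 on PLX5622 and 1.97 ± 0.110% on control diet, with groups that did not overlap (exact p = 0.1). Its log2 ratio differed by 0.34 by label and by 0.20 exchanged (exact p = 0.3). Cox6b2 was at 24.5, 30.8 and 25.1 TPM on PLX5622 and at 36.6, 21.9 and 31.7 TPM on control diet. Cox6b1, the ubiquitous form, was at 1031, 1098 and 1025 TPM on PLX5622 and at 1942, 1084 and 1504 TPM on control diet. Cox7a2l, which helps to join complexes III and IV into supercomplexes, was at 150, 185 and 167 TPM on PLX5622 and at 197, 151 and 211 TPM on control diet. Relative to Cox7a2, which averaged 309 ± 26.6 TPM on PLX5622 and 437 ± 107 TPM on control diet, its log2 ratio differed by 0.32 by label (exact p = 0.1) and by 0.15 with control 3 and PLX5622 3 exchanged, where the groups overlapped (exact p = 0.6). Ndufa4l2, a form induced by low oxygen, was at 0.217, 0.544 and 0.369 TPM on PLX5622 and at 0.912, 0.604 and 0.381 TPM on control diet, too low to be tested.

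The rotor ring of ATP synthase is built from subunit c, which 3 genes encode with the same mature protein and different import sequences. Atp5g3 led, at 1543, 1536 and 1444 TPM on PLX5622 and 2179, 1554 and 1937 TPM on control diet, with groups that did not overlap and a difference of −0.31 ± 0.15. Atp5g1, the gene with the smallest p of complex V, was at 205, 218 and 198 TPM on PLX5622 and at 363, 229 and 308 TPM on control diet. Its difference was −0.51 ± 0.17 (limma adjusted p = 0.205). Its share of the pair with Atp5g3 was 12.1 ± 0.355% on PLX5622 and 13.6 ± 0.718% on control diet (exact p = 0.1), and the 3 PLX5622 libraries were below the 3 control ones. Exchanged, the groups overlapped, with a log2 ratio difference of −0.055 (exact p = 0.6), against −0.20 by label. The difference of Atp5g1 itself was −0.085 exchanged and that of Atp5g3 −0.030. Atp5g2 was at 103, 118 and 106 TPM on PLX5622 and at 168, 106 and 141 TPM on control diet. Its share of the pair with Atp5g3 was 6.73 ± 0.467% on PLX5622 and 6.79 ± 0.383% on control diet (exact p = 0.9).

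**Figure D5:**
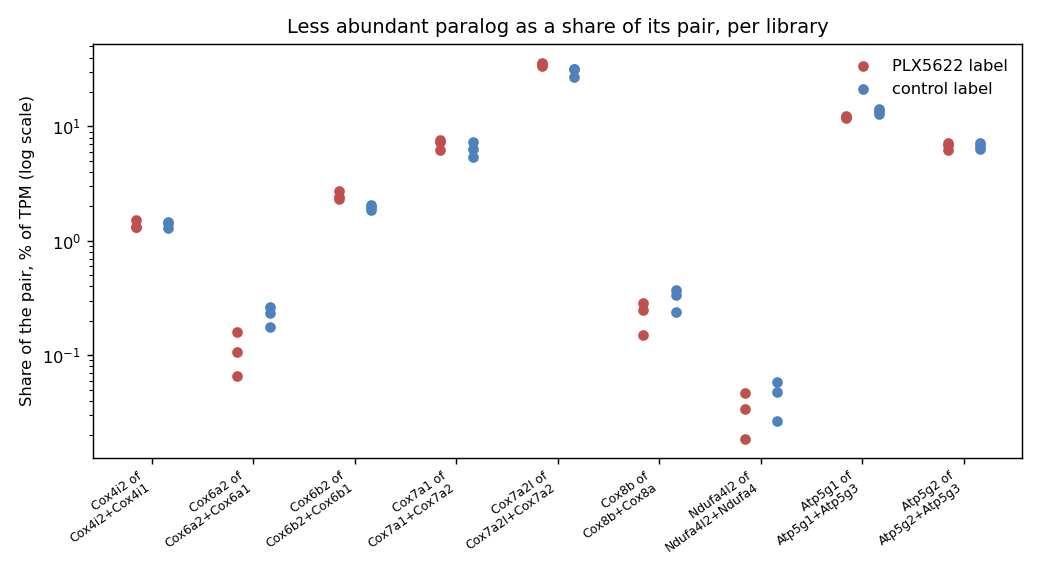
Share of the less abundant gene in each of 9 paralog pairs, in percent of the pair's TPM (log scale), per library, with PLX5622 left and control right. Shares run from below 0.1% for Ndufa4l2 to above 30% for Cox7a2l, and the diets separate by label for Cox6a2, Cox6b2, Cox7a2l and Atp5g1 (exact p of 0.1 each), none of which separates with control 3 and PLX5622 3 exchanged.

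The authors' deposited table, whose numerator is not named and whose negative values are read here as lower on PLX5622, also held small negative values. It gave 95 of the 96 genes, 89 of them negative and 6 positive, with a median log2 fold change of −0.18, against −0.0061 over the tested genes, and 53.7% of all 20062 genes in it were negative. None of the 95 passed: in the authors' deposited values 0 had a DESeq2 adjusted p under 0.05, against 0.0698% of all 20062 genes called lower and 0% higher, and 0 had an unadjusted p under 0.05, against 0.847%. The intervals were wide beside the values: in the authors' table Cox4i1 was at −0.23 (95% interval −0.81 to 0.36), Ndufb4 at −0.29 (−1.07 to 0.49), Sdhb at −0.14 (−0.63 to 0.35) and Sdha at 0.0032 (−0.31 to 0.31). Atp5b was at −0.045 (−0.29 to 0.20). The same order by length was seen in the authors' table, with medians of −0.22, −0.20 and −0.10 for the 31 shortest, the next 31 and the 30 longest genes.

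Other genes of mitochondrial respiration had mixed signs by label, where 61.1% of all tested genes were positive. In a list of 17 genes of the tricarboxylic acid cycle and pyruvate dehydrogenase, 4 were negative and 13 positive by label, with a median of 0.20 and 0 called by limma. Mdh2, malate dehydrogenase, averaged 1022 ± 30.4 TPM on PLX5622 and 1169 ± 107 TPM on control diet. The median relative length of the 17 genes was 0.780. Of 14 tested regulators of respiratory genes, 12 were positive, with a median of 0.21, a median relative length of 1.66 and 0 called. Esrra, a nuclear receptor, averaged 76.3 ± 9.89 TPM on PLX5622 and 52.8 ± 17.0 TPM on control diet, and Yy1 28.4 ± 1.10 and 22.4 ± 3.57 TPM. Of 42 tested assembly factors outside the symbol rule, 24 were negative and 18 positive, with a median of −0.085 and a median relative length of 0.514, and 0 were called. Uqcc2, a complex III assembly factor, averaged 249 ± 9.43 TPM on PLX5622 and 374 ± 105 TPM on control diet, and Cox14 205 ± 6.98 and 249 ± 33.3 TPM. Among 20 genes of electron carriers and ubiquinone synthesis, 13 were negative, with a median of −0.095 and 0 called. Etfb averaged 474 ± 3.65 TPM on PLX5622 and 537 ± 79.6 TPM on control diet, and Cyc1, cytochrome c1 of complex III, 391 ± 16.2 and 393 ± 13.7 TPM. Unadjusted limma p-values under 0.05 were reached by 5 of 17, 5 of 14, 6 of 42 and 2 of 20 genes of these lists, against 22.7% of all tested genes. With control 3 and PLX5622 3 exchanged the medians were 0.075, 0.058, 0.046 and 0.028. In the authors' deposited table they were 0.024, 0.018, −0.014 and −0.038, with 7 of 17 cycle genes and 7 of 15 regulators negative. Of 13 subunits that mitochondrial DNA encodes, 0 were found in the deposited TPM under the symbols searched. These subunits were therefore not analysed here.

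Ribosomal protein genes, another set of short and abundant transcripts, had differences of the same sign. Of 93 tested cytosolic ribosomal protein genes, 84 were negative by label, with a median of −0.48 and a median relative length of 0.274. Of 78 mitochondrial ribosomal protein genes, 67 were negative, with a median of −0.21 and a median relative length of 0.369. Cytosolic ribosomal protein genes took 3.36 ± 0.301% of TPM on PLX5622 and 4.80 ± 1.59% on control diet (SD, n = 3 each), and the highest share, 6.31%, was again in control 1. The difference between these sets and the respiratory genes was not tested.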

How the data were processed

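The members and gene lists were chosen with earlier results of these data known. TPM values per gene were made by the authors, and each deposited column sums to 1000000. The submitters' processing notes name build mm39 and the tools DESeq2 1.32.0, Subread 2.0.1, STAR 2.7.10a and R 4.1.0. No source used here gives the annotation, the gene lengths or how reads matching several places were counted, so genes with near-identical copies are uncertain, as are genes that overlap on the other strand in these unstranded libraries. The authors' deposited table holds baseMean, a signal (mean normalized count), log2 fold changes with standard errors, a score (fold change over its error) and p-values.

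The diets were compared by label by limma (version 3.58.1, R 4.3.3; trended prior variance) fitted to log2(TPM + 1), over the 13084 of 26264 genes whose mean reached 1 TPM, two-sided with Benjamini-Hochberg adjustment over all of them and a threshold of 0.05. The pseudocount shrinks differences of low genes. Differences are PLX5622 minus control. Medians over gene groups carry no test. Loess corrections used a span of 0.3; exonic lengths were matched by symbol for 97.8% of tested genes. Paralog ratios used exact permutation tests in Python 3.11.15.

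Genes were named by a rule: per complex the 2 highest in TPM and the smallest p, the 3 largest differences each way, all Sdh genes, a fixed set of catalytic subunits and paralog pairs, and the 2 highest of each pathway list, some of which are not reported here; Atp5a1, Atp5pb, Ndufs7, Ndufaf1, Ndufaf8, Uqcrc2, Atp5e, Atp5k, Atp5l, Atp5md, Gad1, Cox8c, Ndufa11b and Ndufb4c were added after their values were seen. Markers of the cell types printed are given as sums, and those of mural cells also as counts and medians. Alternatives changed the pseudocount, filter, scaling, length correction, replicate block, trend and libraries used.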

Additional observations from a re-analysis of the deposited data

How the results depend on the processing

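Neither the pseudocounts, the filters, the size factors, the length corrections, the missing trend, the exchanged libraries nor the removal of control 3 and PLX5622 3 gave a call among the respiratory genes. Between libraries of the same replicate number, deviations from the diet means by label correlated at −0.033, −0.272 and −0.147 for replicates 1 to 3. These values cannot decide whether the numbers pair the samples, since the headings of control 3 and PLX5622 3 are in doubt. The fit with the replicate block called 0 of the respiratory genes. Of these alternative fits, only the removal of control 3 and PLX5622 3 has its shares over all tested genes given above. For the rest those shares are not given, so 0 calls is not read as a trait of the respiratory genes. Calls ranged from 0 to 63 lower and from 0 to 1 higher when a single library was left out, all of them without control 2; the cause was not tested. The median difference then ranged from −0.52 to −0.20 over all 92 genes, −0.55 to −0.23 for complex I, −0.29 to −0.10 for the assembly factors, −0.0016 to 0.094 for complex II, −0.46 to −0.16 for complex III, −0.64 to −0.26 for complex IV and −0.58 to −0.20 for complex V. With size factors complex II was at −0.046. After loess on exonic length the medians were −0.15 for all, −0.048 for the assembly factors, −0.20 for complex I, 0.14 for complex II, −0.025 for complex III, −0.17 for complex IV and −0.23 for complex V. After loess on the implied length they were −0.099 for all, −0.12 for complex I, −0.020 for the assembly factors, 0.12 for complex II, 0.030 for complex III, −0.10 for complex IV and −0.088 for complex V. With control 3 and PLX5622 3 exchanged they were −0.069 for all, −0.094 for complex I, −0.015 for the assembly factors, −0.062 for complex III, −0.055 for complex IV and −0.074 for complex V. The log2 ratios, exchanged, differed by −0.17 for Cox4i2, 0.12 for Cox6a2, 0.20 for Cox6b2, 0.15 for Cox7a2l, 0.30 for Cox8b and −0.055 for Atp5g1, an alternative added after seeing the data. Without these 2 libraries complex II was at 0.11 and the log2 ratio of Cox4i2 to Cox4i1 differed by −0.14. Of 32 named genes tested, 6 turned sign after loess on exonic length, 10 after loess on the implied length and 5 with the 2 libraries exchanged. Depth is unknown, so no counting error is given, and p-values rest on 3 libraries a diet.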
